A study of Mus musculus with 16 samples.

Results

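The comparison described here is between male and female mice that received saline only, and it covers the genes that lie outside chromosomes X and Y and the mitochondrial genome. It rests on 8 of the 16 libraries of the series, 4 from saline males and 4 from saline females, and on 50311 of the 54532 genes in the deposited count table. These genes are called autosomal below, although 86 of them lie on unplaced scaffolds. The members were chosen by chromosome and by the sex and treatment in the labels, not by a measured value.

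Total RNA of bronchoalveolar lavage cells, the cells washed out of the airspaces of the lung, was sequenced. The animals were C57BL/6 mice, spelled C56BL/6J in the strain label, 8 to 10 weeks old, of both sexes. Saline, or bleomycin at 4 U per kg body weight, was given oropharyngeally, and the cells belong to a 14-day protocol. Bleomycin damages DNA and is used to injure the lungs of mice. The 4 saline males are libraries C70, C71, C72 and C73 and the 4 saline females are C74, C75, C76 and C77. For comparison, the bleomycin males are C33, C65, C66 and C67 and the bleomycin females are C49, C50, C68 and C69. No genotype or transgene is given. Nothing in the labels says whether each library is a separate animal, so p-values measure only the spread between these libraries. Among the saline libraries the codes of each sex run consecutively, so sex and any order of collection or processing cannot be told apart there. The bleomycin codes of each sex do not all run consecutively.

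Lavage of a healthy mouse lung yields mostly resident alveolar macrophages, which live in the airspace, take up surfactant lipid and inhaled particles, and keep cholesterol in balance by switching between synthesis and export. Cholesterol synthesis genes are driven by the transcription factor SREBP2 when membrane cholesterol is low. Export genes such as Abca1 and Abcg1 are driven by the LXR nuclear receptors when oxidised sterols accumulate. Heat shock genes answer to the factor HSF1 when proteins unfold, and antioxidant genes such as Hmox1, Slc7a11 and Nqo1 answer to NRF2.

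The promoter stretches below belong to genes whose levels differed between the sexes. They are RefSeq sequences of build GRCm38.p6, read 5′ to 3′ on the gene's strand, and all lie before the annotated start. Capitals mark a CCAAT box (CCAAT on either strand) in the first 5 and a TATAAA match in the last. In the Hmgcs1 stretch, a match to TCACNCCAC, a form of the sterol regulatory element searched for after the values were seen, is in capitals as well. Hmgcs1, Insig1 and Srebf2 belong to cholesterol synthesis and its control and were higher in females. Hspa1a and Hspa1b encode the inducible heat shock protein HSP70 and had the largest folds among the named genes higher in males. Abca1, the cholesterol exporter, was higher in males.
Hmgcs1 at chr13:119690101-119690330 (+): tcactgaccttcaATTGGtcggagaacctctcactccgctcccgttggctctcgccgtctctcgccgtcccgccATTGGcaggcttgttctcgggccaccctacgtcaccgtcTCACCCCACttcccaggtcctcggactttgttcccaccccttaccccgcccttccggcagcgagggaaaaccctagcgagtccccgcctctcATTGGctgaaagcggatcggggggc
Insig1 at chr5:28071176-28071220 (+): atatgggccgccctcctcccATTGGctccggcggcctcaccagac
Srebf2 at chr15:82147114-82147158 (+): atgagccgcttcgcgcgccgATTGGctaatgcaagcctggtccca
Hspa1a at chr17:34972199-34972243 (-): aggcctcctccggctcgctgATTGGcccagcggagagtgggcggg
Hspa1b at chr17:34959281-34959325 (-): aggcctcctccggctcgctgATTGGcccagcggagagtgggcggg
Abca1 at chr4:53159899-53159944 (-): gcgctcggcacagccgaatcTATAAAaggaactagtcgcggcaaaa

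A CCAAT box occurred in 43.0% of the 8723 promoter windows of tested protein-coding genes (250 bases before to 50 after the start), TATAAA in 8.28% and TCACNCCAC in 1.38%. The Hspa1a and Hspa1b stretches are identical, and their 300-base windows match at 296 positions. Of the 16 cholesterol efflux genes with a window, of 18 tested, 6 held TATAAA. Of the 15 heat shock genes with a window, of 18 tested, 8 held a CCAAT box. A heat shock element, added after the values were seen, was matched in 4 of the 15 (Hsph1, Hspd1, Hspe1 and Chordc1) and in 0.573% of all windows. Both strands were searched, and a match is only a match of letters. Windows were found for 15 of 22 cholesterol synthesis genes and for 79.4% of all tested protein-coding genes, too few for a statement on those sets. A full estrogen response element was found in 3 of the 8723 windows and a full androgen or glucocorticoid response element in 1. None lay in the windows of the 266 genes higher in males or the 253 higher in females. With matches this rare, none was likely there, so their absence says nothing about control by hormones.

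Totals were 16471022 to 19207944 counts in saline males and 16385784 to 21393539 in saline females. The X-linked Xist had 0 to 4 counts in male libraries and 11704 to 17091 in female ones, and Ddx3y had 1555 to 1888 and 0 to 2, so every library had the sex on its label. Levels are given as CPM, each library's counts divided by its TMM-scaled total and brought to a common total. The summed level of 24 resident alveolar macrophage markers was 35620 to 37740 CPM in males and 42280 to 44850 in females. One marker, Chil3, carried 37.4% to 50.5% of that sum, and the other 23 summed to 21800 to 23520 CPM in males and 22200 to 23970 in females. Neutrophil markers summed to 151.3 to 163.4 CPM in males and 172.6 to 190.2 in females, with Ly6g, Elane and Stfa2l1 at 0 in all 8 libraries. Without Mmp8 the other 15 neutrophil genes summed to 126.9 to 135.2 CPM in males and 125.9 to 139.1 in females, which overlap. Of the 6 neutrophil genes tested, which include Mmp8, 4 had a positive value (median log2 fold change 0.12), and Mmp8 had a negative one. T cell markers summed to 9.30 to 17.27 CPM in males and 7.32 to 10.72 in females, and dendritic cell markers to 195.2 to 285.6 and 198.4 to 224.7. Library C71 held the highest of both. Red blood cell genes summed to 7.28 to 174.1 CPM (males, highest in C71) and 7.92 to 465.4 (females, highest in C74). In such bulk samples, fewer cells of a type and less RNA per cell cannot be told apart.

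Of 13003 autosomal genes that passed the count filter, 378 were higher in males and 348 higher in females at an adjusted p under 0.05 (edgeR quasi-likelihood test with Benjamini-Hochberg adjustment over all 13450 genes tested). A gene past this threshold is called below. These are 2.91% and 2.68% of the genes tested. Most differences were small, with a median log2 fold change, male minus female, of 0.33 among the genes higher in males and -0.33 among those higher in females. A fold of at least 1.5 was reached by 82 of the former and 42 of the latter, 0.631% and 0.323% of the genes tested. At least a 2-fold difference was seen for 38 and 9 genes. The 4 males and 4 females did not overlap for 351 of the 378 genes and 326 of the 348, against 6.82% and 7.58% of all tested genes in these directions. The first principal component of all autosomal genes, 29.9% of the variance, placed the males between -22.71 and -10.96 and the females between 3.69 and 27.41.

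**Figure D1:**
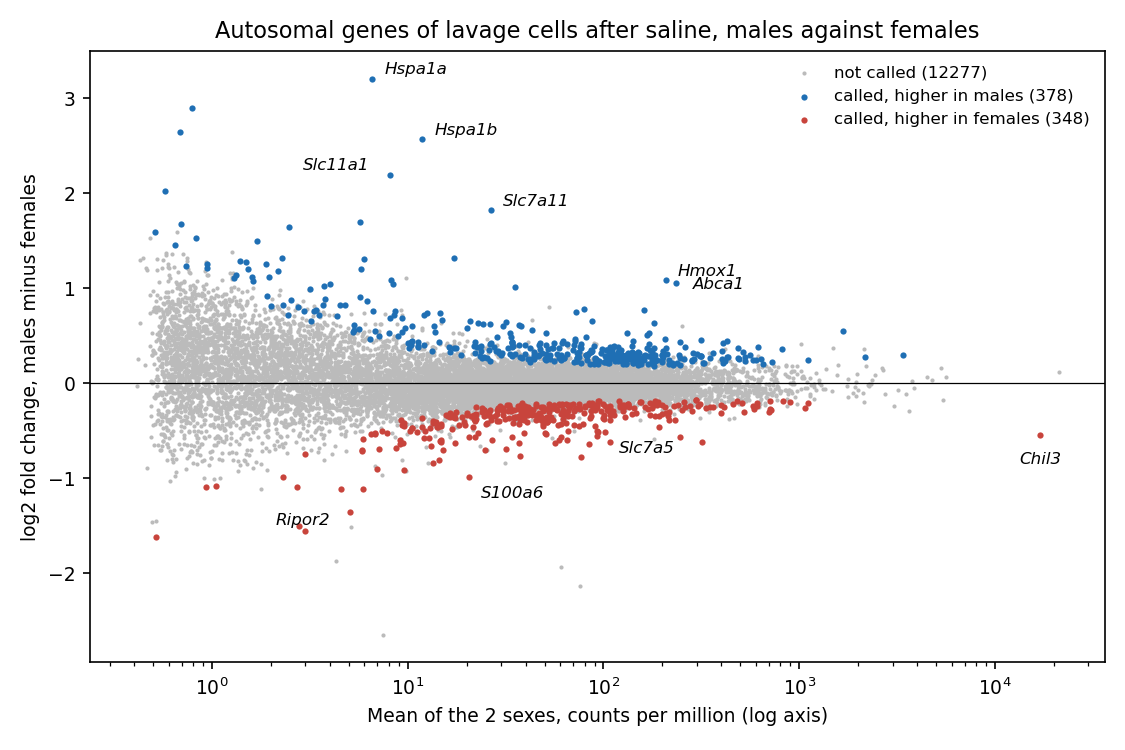
Each point is an autosomal gene, with its mean level in CPM on a log axis against its log2 fold change after saline, males minus females. Blue points are the 378 genes higher in males and red points the 348 higher in females. The largest positive values among labelled genes are Hspa1a at 3.21 and Hspa1b at 2.57, and Chil3 lies at -0.54 at the far right.

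The number of called genes depended on single libraries. Without C77 it fell to 116 and 90 (higher in males, higher in females), without C75 to 123 and 108, without C73 to 171 and 146, without C72 to 173 and 158 and without C70 to 197 and 143. Without C76 it was 282 and 212. It was 397 and 369 without C71 and 550 and 463 without C74. DESeq2 called 661 and 578 genes. In the authors' deposited table of this comparison, 553 autosomal genes were higher in males and 604 higher in females at an adjusted p under 0.05. Of these 1157 genes, 713 were called by edgeR, which is 61.6% of the authors' genes and 98.2% of the edgeR genes, and all 713 had the same direction.

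The largest differences among the named genes higher in males were in heat shock genes. Hspa1a was at 9.69, 20.07, 9.28 and 8.63 CPM in males C70 to C73 and at 2.63, 0.844, 1.03 and 0.677 CPM in females C74 to C77. Hspa1b was at 19.5, 32.3, 13.9 and 15.4 CPM in the males and at 5.27, 2.53, 2.57 and 3.32 in the females. C71 was the highest male for both and C74 the highest female. The sexes did not overlap, but this was required of every named gene. The log2 fold change was 3.21 for Hspa1a (SE 0.38, adjusted p = 0.00066) and 2.57 for Hspa1b (SE 0.28, adjusted p = 0.00038). Without C71 these were 2.84 and 2.26. The pair share sequence, since 47.1% of the 100-base windows of the longest Hspa1a transcript occur unchanged in Hspa1b, so reads may have been split between the copies or dropped.

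Of 18 heat shock genes tested, 6 were higher in males and 0 in females, with a median log2 fold change of 0.19 against -0.0031 for all autosomal genes tested. Beside the HSP70 pair these were Hsph1, Dnaja1, Chordc1 and Dnajb1, which encode chaperones and co-chaperones. Hsph1, a nucleotide exchange factor of HSP70, was at 103, 88.1, 82.6 and 87.6 CPM in the males and at 66.7, 44.6, 48.8 and 54.3 in the females (log2 fold change 0.76, SE 0.11, adjusted p = 0.0027). Dnaja1, an HSP40 co-chaperone, was at 159, 139, 169 and 158 CPM in the males and at 113, 101, 109 and 112 in the females (log2 fold change 0.53, SE 0.064, adjusted p = 0.00081). Hspa8, the constitutive HSP70, overlapped between the sexes, with 2189 to 2723 CPM in males and 1534 to 2386 in females (adjusted p = 0.085). The count of 6 stayed between 5 and 9 when any 1 library was left out, and the Dnajb1 call was lost in 6 of these 8 fits.

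Some NRF2 target genes and iron genes also differed. Of 25 NRF2 antioxidant genes, 6 were higher in males and 0 in females, with a median log2 fold change of 0.13. The list held 15 positive and 10 negative values. Slc7a11, the cystine importer that feeds glutathione synthesis, was at 35.5, 61.4, 26.5 and 42.5 CPM in the males and at 12.9, 11.4, 12.95 and 9.36 in the females. Its log2 fold change was 1.83 (SE 0.21, adjusted p = 0.00047). Hmox1, the heme-degrading enzyme heme oxygenase, was at 254, 411, 204 and 261 CPM in the males and at 145, 125, 139 and 122 in the females (log2 fold change 1.09, SE 0.16, adjusted p = 0.0028). C71 was again the highest male, and without it the value for Hmox1 was 0.85 and for Slc7a11 1.58.

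The other NRF2 genes called were Nqo1, Txnrd1, Srxn1 and Cat. Nqo1, a quinone reductase, was low in all libraries, at 2.24 to 4.68 CPM in males and 0.923 to 1.56 in females (log2 fold change 1.32, SE 0.28). The thioredoxin reductase Txnrd1 and the sulfiredoxin Srxn1 had log2 fold changes of 0.31 (SE 0.056) and 0.53 (SE 0.11) with no overlap. For the catalase gene Cat the libraries overlapped, at 193.3 to 240.5 CPM in males and 175.6 to 194.7 in females, and its call was lost in 6 of 8 fits that left out 1 library, all but those without C72 and without C74 (log2 fold change 0.24, without C71 0.19 at an adjusted p of 0.076). The count of 6 was 3 without C75 and 3 without C77, and 4 without C73.

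Among 23 iron and heme genes, 4 were higher in males, Slc11a1, Slc40a1, Hmox1 and Blvrb, and 1 was higher in females, Steap3, a ferrireductase. The list held 13 positive and 10 negative values, with a median log2 fold change of 0.039. Slc11a1, the metal transporter NRAMP1 of the phagosome, was at 9.57, 22.98, 9.65 and 11.4 CPM in the males and at 3.65, 2.91, 3.19 and 1.85 in the females. The log2 fold change was 2.20 (SE 0.29, adjusted p = 0.0016), and without C71 it was 1.81. Slc40a1, the iron exporter ferroportin, was at 9.18, 14.4, 10.2 and 10.8 CPM in the males and at 6.28, 4.92, 5.65 and 4.06 in the females (log2 fold change 1.09, SE 0.17, adjusted p = 0.0035). Among males, C71 had the highest sum of red blood cell genes, 174.1 CPM against 7.28 to 43.6, and the highest Hmox1, Slc11a1 and Slc40a1. Among all 8 libraries the highest sums were in the females C74 and C76, at 465.4 and 334.6 CPM, with Hmox1 at 145 and 139 CPM. The part of red blood cells in the iron and heme values was not tested.

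**Figure D2:**
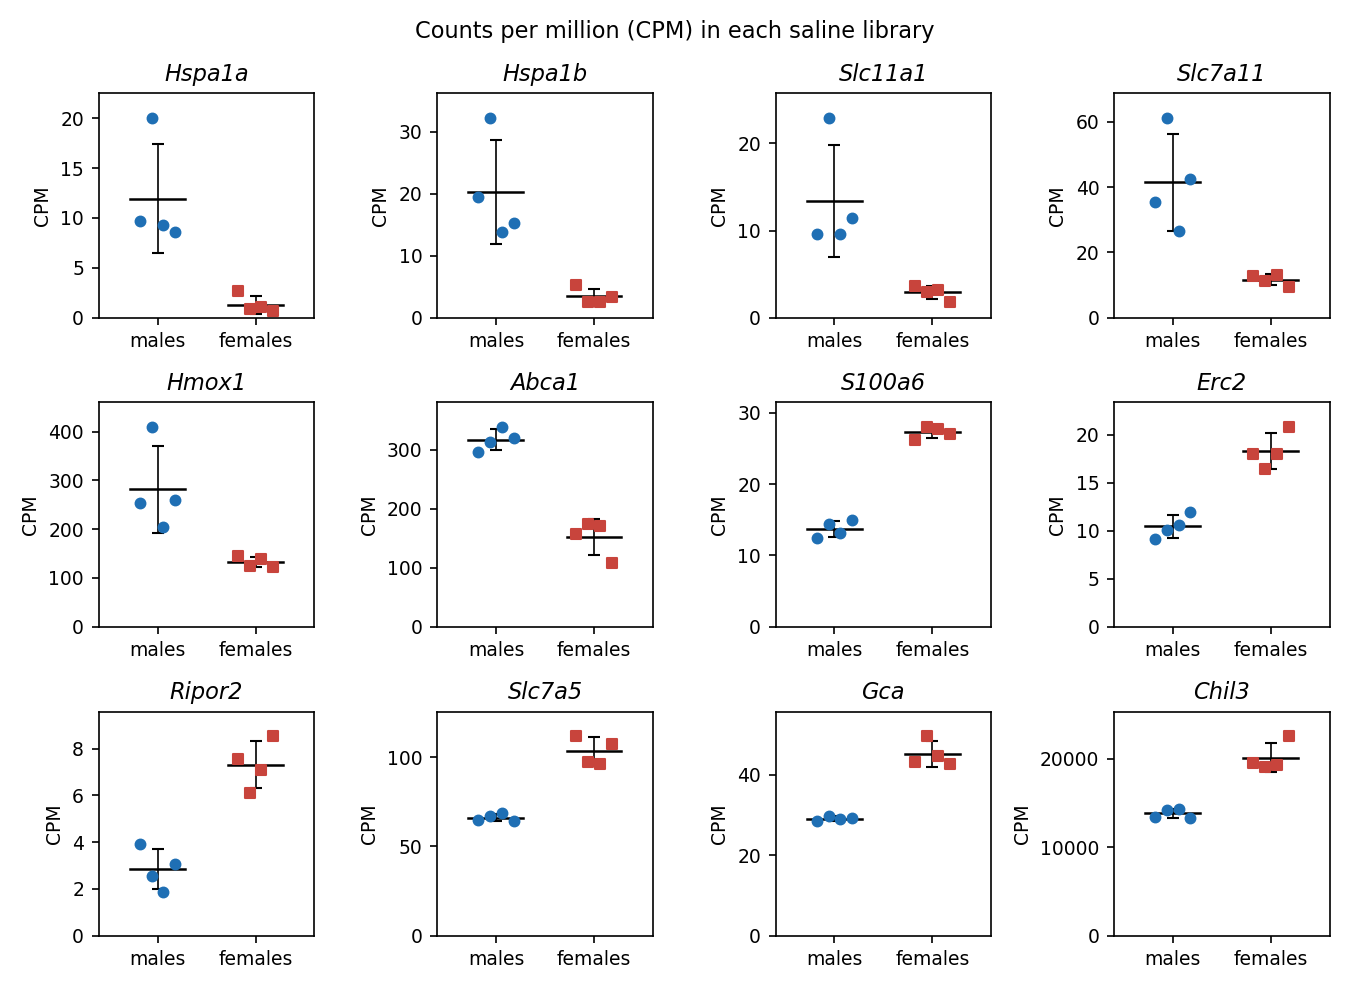
Levels in CPM of 12 named genes in each of the 4 saline male (blue circles) and 4 saline female libraries (red squares), with the mean as a black line and the SD as bars, on axes that start at 0. The sexes do not overlap for any of them because no overlap was part of the rule that chose the named genes. C71 is the highest male point for Hspa1a, Hspa1b, Slc11a1, Slc7a11 and Hmox1.

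All 22 tested genes of cholesterol synthesis and its control had a negative value, that is a lower level in males, and 11 were called higher in females and 0 in males. Their median log2 fold change was -0.35. Among the called genes were the enzyme genes Hmgcs1, whose product makes HMG-CoA, Idi1, Fdft1, Sqle, Cyp51, Msmo1 and Hsd17b7. Also called were the regulators Srebf2, which encodes SREBP2, and Insig1, which retains it, and the sterol carrier gene Stard4. With 1 library left out, the Insig1 call was lost in 7 of 8 fits and the Srebf2 call in 5, while Idi1, Sqle, Cyp51 and Hmgcs1 lost theirs in 0.

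Idi1, the isopentenyl diphosphate isomerase, was at 26.8, 27.5, 20.9 and 22.4 CPM in the males and at 39.7, 38.4, 36.1 and 43.3 in the females (log2 fold change -0.69, SE 0.093). Sqle, the squalene epoxidase, was at 51.6, 60.6, 45.7 and 48.3 CPM in the males and at 80.4, 71.2, 74.4 and 86.2 in the females (log2 fold change -0.60, SE 0.088). In both genes C77 was the highest female, and every female exceeded every male. The list's count of 11 was 5 without C77 and lay between 8 and 13 when any other library was left out.

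Of 18 genes of cholesterol efflux and LXR response, 6 were higher in males and 0 in females, with a median log2 fold change of 0.15. The list held 11 positive and 7 negative values. Abca1, which loads cholesterol onto apolipoproteins, was at 295, 314, 339 and 320 CPM in the males and at 157, 174, 170 and 107 in the females (log2 fold change 1.06, SE 0.12, adjusted p = 0.00038). C77 was the lowest female, and the sexes were far apart. Apoe, an acceptor of exported cholesterol, had a log2 fold change of 0.49 (SE 0.093, adjusted p = 0.011), and Mylip, which degrades the LDL receptor, of 0.37 (SE 0.071, adjusted p = 0.013). Abcg1, which exports cholesterol to mature lipoproteins, was at 2441, 2350, 2246 and 2484 CPM in the males and at 2221, 2046, 1813 and 1801 in the females. Its difference was small (log2 fold change 0.27, SE 0.072, adjusted p = 0.045) and was lost in 6 of 8 fits that left out 1 library, all but those without C71 and without C74 (adjusted p = 0.14 without C77). The lysosomal cholesterol transporter Npc1 and the phospholipid transfer protein Pltp made up the 6, and with 1 library left out the Npc1 call was lost in 6 of 8 fits and the Pltp call in 7. The LXR gene Nr1h3 itself was not called (log2 fold change -0.16, adjusted p = 0.15). The count of 6 was 3 in each of 6 fits that left out 1 library, all but those without C71 and without C74.

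**Figure D3:**
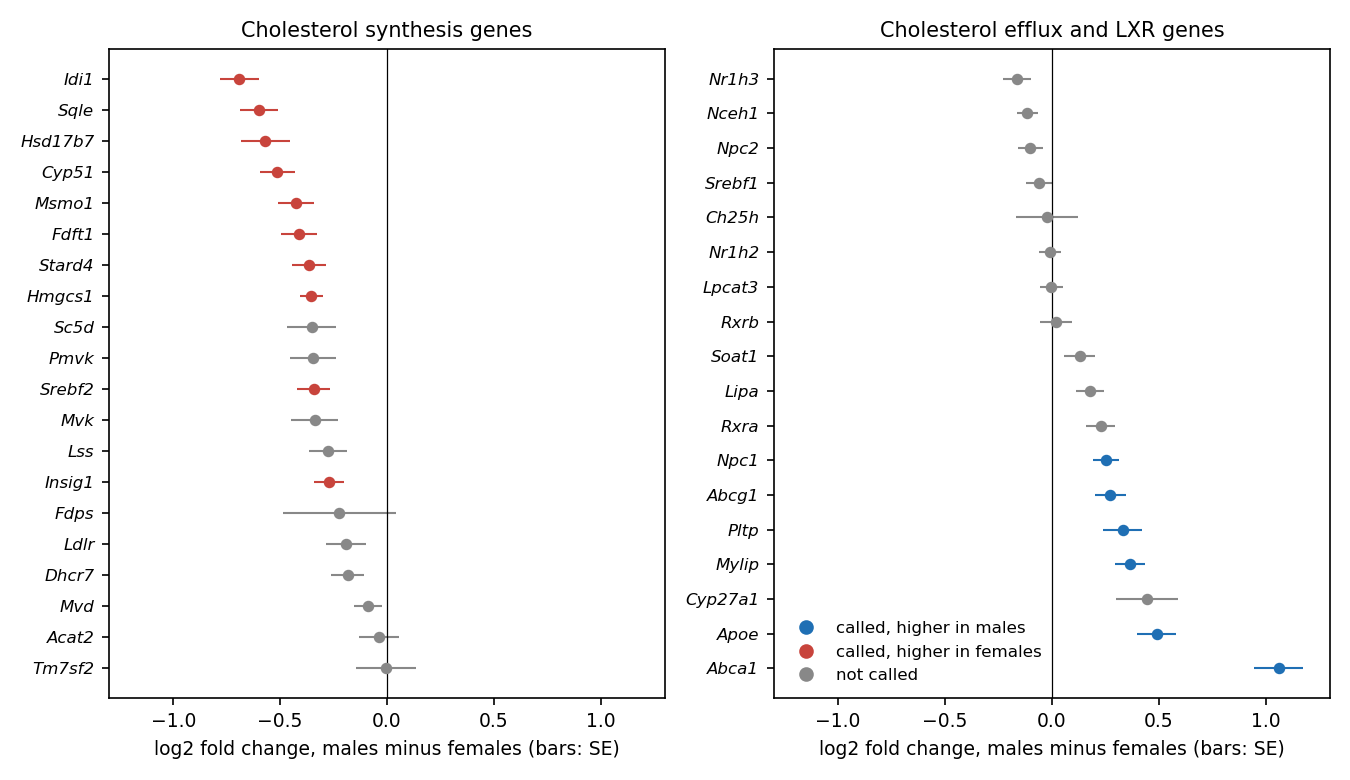
Log2 fold changes after saline, males minus females, with SE bars, for 20 of the 22 tested cholesterol synthesis genes (left) and the 18 cholesterol efflux and LXR genes (right). The left panel lies below 0 throughout with 10 red genes called higher in females, and the right panel holds 6 blue genes called higher in males with Abca1 at 1.06.

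Several genes of lipid use pointed to either sex. Scd1, the stearoyl-CoA desaturase, was higher in males (log2 fold change 0.62, SE 0.12, adjusted p = 0.011), while Acsl1 and Agpat2 were higher in females, among the 27 tested in the list of fatty acid synthesis and storage (the Agpat2 call was lost in 7 of 8 fits that left out 1 library). Of 25 fatty acid oxidation genes, 1 was higher in females, Echs1 (4%, near the 2.68% of all autosomal genes tested). Of 22 glycolysis genes, 3 were higher in females (Slc2a1, Tpi1 and Pdk1) and 0 in males, a count that was 0 without C75 or C77, 1 without C70 and 6 without C71. Gpd1, the cytosolic glycerol phosphate dehydrogenase, was at 16.5 to 22.8 CPM in males and 26.9 to 32.9 in females (log2 fold change -0.70, SE 0.10, adjusted p = 0.0028).

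Amino acid transporters differed in both directions, 3 of 19 higher in males (15.8%) and 2 in females (10.5%). Of all autosomal genes tested, 2.91% and 2.68% were called in these directions. Slc7a5, the importer of large neutral amino acids, was at 64.9, 67.1, 68.6 and 64.3 CPM in the males and at 112, 97.2, 96.4 and 108 in the females. Its spread within each sex was small beside the difference (log2 fold change -0.64, SE 0.062, adjusted p = 0.00013). Slc7a1, the arginine importer, was higher in females (log2 fold change -0.38, SE 0.069), whereas Slc7a11, Slc38a6 and Slc36a1 were higher in males. The autophagy receptors Sqstm1 and Nbr1 and the ATG8 protein Gabarapl1 were higher in males, 3 of 28 autophagy genes (10.7%). That list held 15 positive and 13 negative values, with a median log2 fold change of 0.014. Sqstm1 was at 561 to 594 CPM in males and 449 to 464 in females. With 1 library left out, the Sqstm1 call was lost in 0 of 8 fits, that of Nbr1 in 4 and that of Gabarapl1 in 7.

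Genes higher in females included several secreted and surface proteins of macrophages. S100a6, the calcium-binding protein calcyclin, was at 12.5, 14.4, 13.2 and 14.98 CPM in the males and at 26.2, 28.1, 27.8 and 27.1 in the females. It had the smallest adjusted p of the named genes (log2 fold change -0.99, SE 0.079, adjusted p = 1.5e-05). Chil3, the chitinase-like protein of alveolar macrophages, was at 13450, 14220, 14380 and 13320 CPM in the males and at 19510, 19090, 19330 and 22650 in the females (log2 fold change -0.54, SE 0.075, adjusted p = 0.0021). Its mean FPKM of 9616 was the highest of the named genes, and C77 was the highest library. Of 24 resident macrophage markers only Chil3 was called higher in females and only Abcg1 higher in males. This is 4.17% in each direction, near the 2.68% and 2.91% of all autosomal genes tested.

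Among complement genes, C4b, a component of the classical pathway, was at 1.22 to 1.71 CPM in males and 3.39 to 5.82 in females (log2 fold change -1.56, SE 0.22, adjusted p = 0.0021). C1qa was higher in males at 3.70 against 2.17 mean CPM (adjusted p = 0.044). Of 14 complement genes, 1 was called higher in males (7.14%) and 2 in females (14.3%). Of all autosomal genes tested, 2.91% and 2.68% were. The C1qa call was lost in all 8 fits that left out 1 library. The inhibitory Fc receptor gene Fcgr2b was at 168.5 to 220.0 CPM in males and 278.8 to 298.6 in females (log2 fold change -0.57, SE 0.077). The endotoxin co-receptor gene Cd14 was at 70.99 to 79.8 CPM in males and 93.8 to 114.4 in females (log2 fold change -0.45, SE 0.066). It was the only call among 27 autosomal toll-like receptor and NF-kB genes (3.7%, near the 2.68% of all autosomal genes tested). That list held 20 positive and 7 negative values, with a median log2 fold change of 0.15. Among 19 scavenger and efferocytosis receptors, Msr1 and Scarb1 were higher in females and Mertk and Lrp1 in males. This is 10.5% in each direction, against 2.68% and 2.91% of all autosomal genes tested. With 1 library left out, Msr1 and Scarb1 lost their call in 0 of 8 fits, Mertk in 6 and Lrp1 in 7.

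Mmp8, the collagenase known from neutrophils, was at 22.8 to 34.8 CPM in males and 39.5 to 64.3 in females (log2 fold change -0.76, SE 0.15, adjusted p = 0.015). The neutrophil marker sum was higher in every female library than in every male one only with Mmp8 in it, and overlapped without it. Osm, the cytokine oncostatin M, was at 8.23 to 11.2 CPM in males and 13.1 to 24.6 in females (log2 fold change -0.84, SE 0.18). Of 12 dendritic cell markers, 11 had a positive value (median log2 fold change 0.39). Without C71, 8 were positive and 4 negative (median 0.18). Clec9a was called higher in males in every fit that left out 1 library. Batf3, the only negative one, was called higher in females, but the call was lost in 7 of 8 such fits and with DESeq2, voom or library totals alone. Batf3 was at 5.599 to 8.22 CPM in the males, at 5.74 in the female C74 and at 13.8 to 15.7 in C75 to C77, so its groups overlapped through C74. Near the 2.68% of all autosomal genes tested that were higher in females, cell cycle genes held 2 calls of 45 (4.44%), both higher in females. They were Stmn1, a microtubule regulator whose call was lost in 5 of 8 fits that left out 1 library, and Ccnd2, a G1 cyclin, at 190.8 to 301.9 CPM in males and 350.6 to 407.7 in females.

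Named genes higher in females also included Ripor2 at 1.86 to 3.92 CPM in males and 6.09 to 8.56 in females (log2 fold change -1.36). Acvr1c, an activin receptor, and Kcnk5, a background potassium channel, had log2 fold changes of -1.12 and -0.91. Erc2, a scaffold protein of secretory sites, had one of -0.81, and Haao, an enzyme of tryptophan breakdown, one of -0.72. Spag11b, a defensin-like gene, had one of -0.71. St7, the calcium-binding Gca, the UDP-sugar receptor gene P2ry14 and the ciliary gene Tmem216 lay between -0.63 and -0.52.

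Named genes higher in males also included receptors and cytoskeletal genes. Cxcr1, a chemokine receptor gene, was at 18.4, 37.0, 25.4 and 17.98 CPM in the males and at 9.33, 10.8, 12.04 and 7.26 in the females (log2 fold change 1.32, SE 0.22, adjusted p = 0.0055). Id3, an inhibitor of helix-loop-helix factors, had a log2 fold change of 1.21, Cyfip2, part of the WAVE actin complex, of 1.31, and Arl4c, a small GTPase, of 1.02. Cyfip2 was at 14.6 CPM in C71 and 5.32 to 7.37 in the other males, against 2.65 to 4.25 in females. Its call was lost in 2 of 8 fits that left out 1 library. The semaphorin gene Sema4d and the lipid phosphatase gene Plpp3 were far higher in C71 than in the other males. Sema4d was at 19.3 CPM in C71 and 8.29 to 9.35 in the other males, against 4.25 to 6.73 in females, and its log2 fold change of 1.05 was 0.67 without C71. The Sema4d call was lost without C73, C74, C75 or C77. Plpp3 was at 9.06 CPM in C71 and 3.92 to 4.495 in the other males, against 1.79 to 3.05 in females, and its call was lost in 6 of 8 fits that left out 1 library, C71 among them (log2 fold change 0.69, adjusted p = 0.062). C71 also held the highest dendritic and T cell marker sums, and their part in these values was not tested. Plxna1, a semaphorin co-receptor gene, and Ttll3, a tubulin-modifying enzyme gene, had log2 fold changes of 0.63 and 0.60. The abundant genes Lrp1, Creg1 and Tnfaip2 differed by 0.30, 0.27 and 0.25.

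Of 80 cytosolic ribosomal protein genes, 72 had a negative value and 13 were called higher in females, 0 in males, with a median log2 fold change of -0.19. Rplp0 was at 925 to 1005 CPM in males and 1107 to 1272 in females, and Rps3a1 and Rps15 were the other members among the named genes. Of 34 translation factors and ribosome biogenesis genes, 8 were higher in females and 0 in males (median -0.17), among them Gnl3 and Nop58 of the nucleolus. Of 74 nuclear respiratory chain subunits, 6 were higher in females (median -0.12), with Uqcrc2 and Uqcrfs1 of complex III at log2 fold changes of -0.34 and -0.38. Of 31 splicing and nuclear speckle genes, 5 were higher in males (Malat1, Srrm2, Pnisr, Rbm5 and Tra2a) and 0 in females, with a median of 0.12. Malat1, a nuclear long noncoding RNA, was at 1987, 2130, 1955 and 1896 CPM in the males and at 1149, 1376, 1721 and 1191 in the females (log2 fold change 0.55, SE 0.10, adjusted p = 0.011).

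Gene length moved with these groups. The called protein-coding genes had a median length, as given in the deposited table, of 7956.5 bases when higher in males and 3250 when higher in females, against 4431.5 for all tested. At lengths near 1000 bases, library C77 lay 0.12 above the gene means on the log2 scale and C76 0.083 above, while C73 lay 0.069 below and C74 0.045 below. When each library's length trend was removed, which was chosen after seeing the data, 229 genes were higher in males and 210 in females, with median lengths of 5157 and 5119 bases. In that fit the ribosomal proteins had 3 calls, the respiratory chain genes 3, the splicing genes 1, the translation genes 6 and the steroid receptor cofactors 0. The list medians were -0.14 for ribosomal proteins, -0.065 for the respiratory chain, 0.085 for splicing and -0.16 for translation. The heat shock genes had 6 calls, the NRF2 genes 6, the iron genes 4 and 1, the cholesterol synthesis genes 10 and the efflux genes 4. The ribosomal calls also fell to 0 without C73 or without C77 and to 2 without C70 or without C75, with 4 without C72 and 22 without C71 or without C74. The splicing calls fell to 1 without C75 and to 2 without C70, C72, C73 or C77. The translation calls fell to 2 without C77 and 3 without C73. The respiratory chain calls fell to 3 in each fit without 1 library other than C71 or C74. With the length trend removed, 36 of 197 named genes and list members that were followed lost their call. Another 1 gained a call and 160 kept their status. Not all of the 197 were called to begin with, so the 160 include genes called in neither fit. Whether gene length caused any of these differences was not tested.

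**Figure D4:**
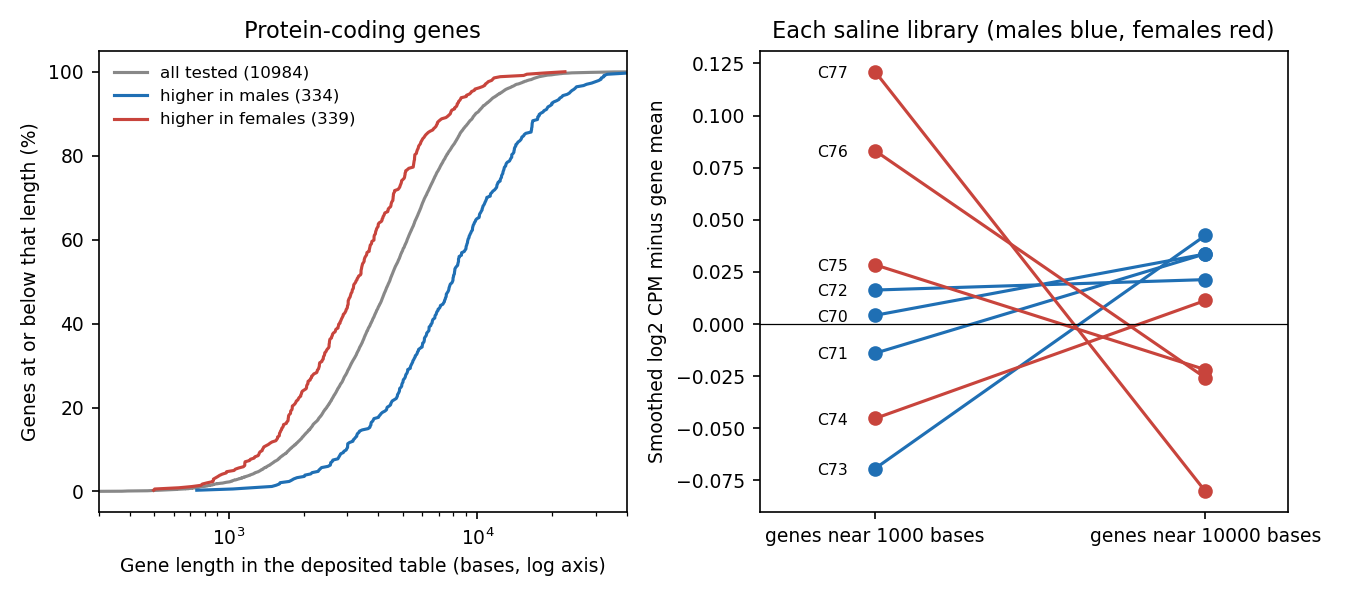
Left, the cumulative share of protein-coding genes by length in the deposited table (log axis), for the 334 called higher in males, the 339 called higher in females and all 10984 tested. The medians are 7956.5, 3250 and 4431.5 bases. Right, the smoothed deviation of each saline library from the gene mean near 1000 and near 10000 bases, with C77 the highest and C73 the lowest for short genes.

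Several lists held no called gene, against 5.58% of all autosomal genes tested, a share that amounts to few genes in lists of this size. Of 32 interferon-stimulated genes 0 were called, as of 23 immediate early genes, 12 MHC class II presentation genes, 12 chemokine genes and 17 TGF-beta pathway genes. Without C74, 3 interferon-stimulated, 3 immediate early and 1 chemokine gene were called, and without C71, 2 chemokine genes and 1 immediate early gene. Immediate early genes also held 1 call without C70 and 1 without C76. With DESeq2 they held 1 call higher in males and 2 higher in females. The receptors Esr1, Esr2 and Pgr were below the count filter, and of 8 steroid receptor and cofactor genes tested, the cofactor genes Ncoa3 and Ncor1 were higher in males by 0.26 and 0.20 on the log2 scale, and with 1 library left out the Ncoa3 call was lost in 7 of 8 fits and the Ncor1 call in 6. The glucocorticoid receptor gene Nr3c1 was at 209.6 ± 14.1 CPM (SD, n = 4) in males and 204.5 ± 5.62 in females. Fkbp5, a glucocorticoid-induced gene, was higher in females (log2 fold change -0.46, SE 0.11, adjusted p = 0.036), 1 of 11 such genes, and its call was lost in 5 of 8 fits that left out 1 library. Hemoglobin genes had large values with a wide spread and were not called: Hbb-bs had a log2 fold change of -2.13 (SE 0.93, adjusted p = 0.18). Without C71, 3 of the 4 red blood cell genes tested were called higher in females and their median moved from -2.03 to -3.55, and without C75, 1 was called. All 4 were called higher in females when no low-count filter was used.

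The same contrast in the 8 bleomycin libraries, which share no sample with the saline ones, called 0 of 13727 autosomal genes (0%, edgeR), while 6 genes on X or Y were called. The spread was wider there, with a common biological coefficient of variation of 0.199 against 0.0924 after saline. At an unadjusted p under 0.05, 97 genes were higher in bleomycin males (0.707%) and 140 in bleomycin females (1.02%). DESeq2 called 2 autosomal genes. Of the 370 saline genes higher in males that were tested, 93 had the same sign after bleomycin (25.1%), and of the 346 higher in females 164 did (47.4%), against 44.9% of all 12282 genes tested in both. Unadjusted p under 0.05 (edgeR) in the same direction was found for 7 and 9 of them, and in the opposite direction for 3 and 1. The 7 were Abca1, Arl4c, Mylip, Scd1, Plpp3, Enpp5 and Gm44126, named here after their values were seen.

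Values for the leading genes show the contrast side by side. Hspa1a was at 3.96 ± 1.598 CPM (SD, n = 4) in bleomycin males and 3.60 ± 1.23 in bleomycin females, a log2 fold change of 0.14 (SE 0.32). Slc7a11 was at 82.2, 103.2, 82.4 and 75.4 CPM in the bleomycin males and at 95.1, 110.7, 68.1 and 94.6 in the bleomycin females (log2 fold change -0.10, SE 0.15). Abca1 was at 309 ± 36.1 CPM in bleomycin males and 247 ± 38.9 in females (log2 fold change 0.32, SE 0.13). S100a6 was at 104 ± 29.96 and 105.5 ± 35.6 CPM (log2 fold change -0.02, SE 0.27). Erc2 was at 2.89 ± 1.11 CPM in males and 5.30 ± 1.02 in females (log2 fold change -0.87, SE 0.28), against -0.81 after saline. After bleomycin it was not called (edgeR adjusted p = 0.9998). Its libraries overlapped there, with male C33 at 4.45 CPM and female C50 at 4.04. The cholesterol synthesis list had a median log2 fold change of -0.12 after bleomycin, the efflux and LXR list one of -0.04 and the ribosomal list one of 0.15.

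**Figure D5:**
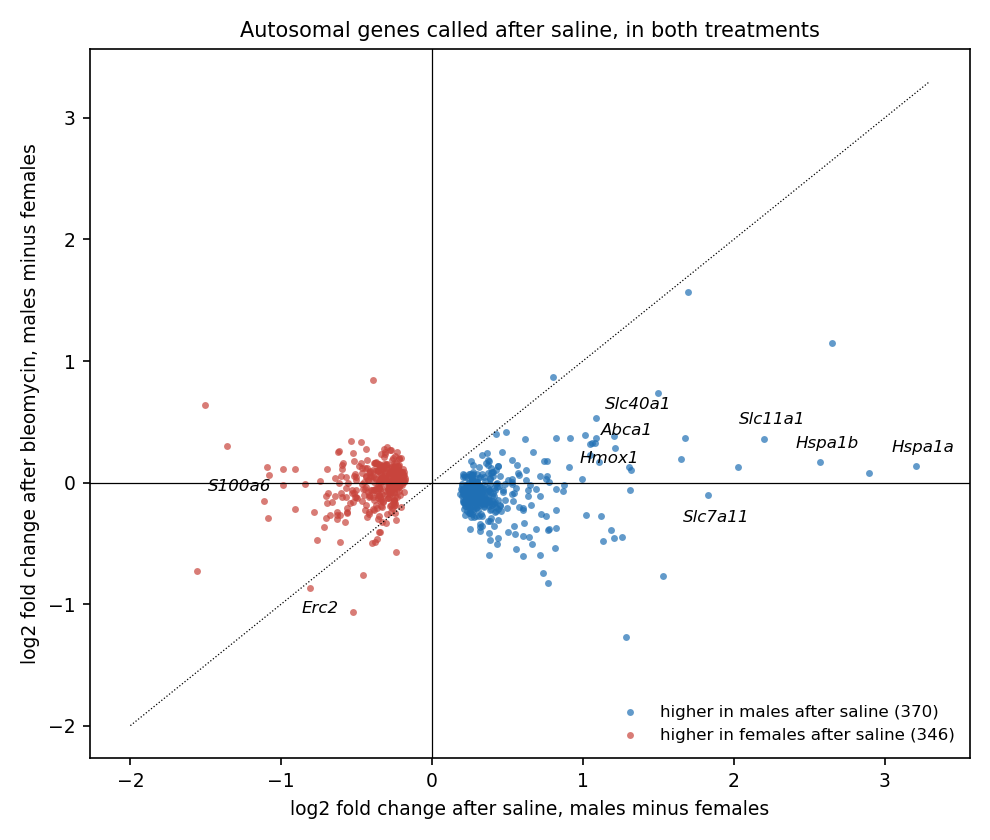
Log2 fold changes, males minus females, of the autosomal genes called after saline that were also tested after bleomycin, with the saline value on the horizontal axis and the bleomycin value on the vertical axis. Blue marks 370 genes higher in males after saline and red 346 higher in females, and the dotted line marks equal values. Hspa1a, Hspa1b and Slc7a11 lie near 0 on the vertical axis.

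A test of whether the sex difference itself differed between treatments, fitted over all 16 libraries, called 1 of 14755 autosomal genes (0.00678%, edgeR). This was Slc7a11, whose difference was lower after bleomycin than after saline by a log2 value of -1.93 (SE 0.29, adjusted p = 0.044). With library totals as the only scaling, 0 genes were called, and DESeq2 called 21. The values for Hspa1a (-3.07, adjusted p = 0.26), Slc11a1 (-1.84, adjusted p = 0.32) and Abca1 (-0.74, adjusted p = 0.48) did not pass. With edgeR, a difference between treatments in the sex effect was not shown for the other genes.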

How the data were processed

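Read counts per gene were deposited by the authors for 16 lavage-cell libraries. The submitters' processing notes name HISAT2 2.0.5, fastp 0.12.2, DESeq2 and, for counting, featureCounts 1.5.0-p3. They name both mm9 and mm10. Deposited FPKM values, normalised by the authors, were used only to rank abundant genes. The authors' deposited comparison table gives log2 fold changes and p-values, and it lists genes up to an unadjusted p of 0.0499.

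The 4 saline male and 4 saline female libraries were fitted alone in edgeR 4.0.16 (R 4.3.3; filterByExpr by group, TMM, quasi-likelihood F test). Of 13450 genes tested, 447 on X, Y or the mitochondrial genome entered the fit and the adjustment but no count below. The standard error is the absolute log2 fold change divided by the square root of F. CPM values are TMM-scaled. DESeq2 1.42.0 and limma 3.58.1 voom were alternatives. The scripts were tested on simulated data. Replicate libraries of a sex differed by more than sampling noise, with a chi-square per gene of 4.49 to 14.2, so each was counted once.

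The comparison, the 50 gene lists and the rule for named genes were chosen with earlier results of these data known, so the lists give no independent support. Named genes are called protein-coding genes with a symbol that is not a predicted-gene name, at least 5 CPM in the higher sex and no overlap. The 12 largest folds, 8 smallest p and 4 highest FPKM per direction were taken, 41 genes in all, and beside them up to 3 genes of each list by smallest p. Called list members given beyond those were chosen after their values were seen. Promoters are RefSeq windows of GRCm38.p6, matched by symbol for 8723 of 10981 genes. Stretches that lie in a GENCODE transcript were not printed. Some genes that belong to these lists are not reported here by name.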

Additional observations from a re-analysis of the deposited data

Results flagged for a closer look

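Among the 41 named genes, each sex was examined for a library far from the other 3 of its group, 82 groups in all. A gap to the nearest library that took up nearly the whole range was found in 7 groups; chance gives about 1 in 20 groups. Library C71 was the high male for 5 genes. It had 20.07 CPM of Hspa1a against 8.63 to 9.69 in the other males, and 22.98 CPM of Slc11a1 against 9.57 to 11.4. It had 19.34 CPM of Sema4d against 8.29 to 9.35, 9.06 CPM of Plpp3 against 3.92 to 4.495, and 257.8 CPM of Plxna1 against 205.6 to 211.5. Library C77 was the high female for Chil3, at 22650 CPM against 19090 to 19510, and for Rps3a1, at 715.3 CPM against 606.4 to 622.3.

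For Slc7a11 the sex difference itself differed between treatments, by -1.93 on the log2 scale (edgeR interaction test, SE 0.29, adjusted p = 0.044). The sexes overlapped after bleomycin, while no overlap after saline was required of every named gene.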

How the results depend on the processing

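Of 197 genes followed under 18 alternatives (191 with an adjusted p in DESeq2, 175 past the strict filter and 196 without C71 and C74), none that was called under the reported or the other setting had opposite signs in the 2, but the number of called genes depended on the setting. Counts are given as higher in males, higher in females. DESeq2 called 661 and 578 genes. Without a low-count filter 629 and 706 were called, 172 and 78 of them at 1.5-fold or more. With a strict filter (5 CPM in 4 libraries) 45 and 26 passed at 1.5-fold. In a fit over all 16 libraries 17 and 12 were called, and 13 and 8 at 1.5-fold. Scaling by library totals alone gave 451 and 259, so 63.5% of calls were higher in males against 52.1%, and the strict filter gave 526 and 296, or 64%. Leaving out 1 library gave 116 to 550 and 90 to 463 genes, and 34 to 102 and 23 to 56 at 1.5-fold. Chosen after seeing the data, removal of the length trend gave 229 and 210, and leaving out C71 and C74 together gave 659 and 623, with 72 higher in females at 1.5-fold. For bleomycin, DESeq2 and the fit without a filter each called 2 genes. For the difference between treatments, DESeq2 called 21, library totals alone 0 and no filter 14. The cause was not tested, beyond the fewer libraries or other genes in a fit. No paired analysis was possible because the labels carry no replicate numbers shared between the sexes. Genes with a few CPM, such as Hspa1a in females, rest on few counts.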
